A study of Mus musculus with 4 samples.

Results

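Numbered zinc finger genes (symbols made of Zfp and a number) were compared between leukemic cells with and without Msi2. Of 340 such rows among 23284 gene rows, 289 had 1 or more CPM (the count scaled to library size, over the sum of the gene rows) in at least 2 of the 4 libraries, and these are the members described here. The levels in these same libraries chose the members, so a level above that threshold is no finding. The other 51 rows stayed under the threshold, 15 of them with no count in any library. A further 30 rows start with Zfp but carry a letter after the number or another ending and were not taken as members.

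The study sequenced RNA of leukemic cells with high c-Kit, the stem cell factor receptor of early blood cells, sorted from mice of strain C57BL/6 with MLL leukemia, as the series title names it. Musashi 2, which Msi2 encodes, binds RNA and controls translation. The 2 Msi2 -/- libraries lack this gene, and the 2 control libraries are Msi2 flox/flox, with the alleles flanked by recombination sites but intact. Each library is from 1 mouse. The age of the mice, the MLL fusion, the agent that deleted Msi2 and any treatment are not stated in the labels.

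Most of these genes encode proteins with C2H2 zinc fingers, small folds held by a zinc ion that read short stretches of DNA and in some proteins bind RNA. In many members a KRAB domain at the front of the protein recruits the corepressor Trim28, which brings Setdb1 and other histone and DNA methylation factors to the bound site. KRAB zinc finger proteins are best known for silencing retroelements and for guarding imprinted sites, and their genes sit in clusters that arose by duplication. Members without KRAB include general promoter factors, chromatin adaptors and proteins that act on RNA or ribosomes.

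Msi2 itself had 0.0914 and 0.216 CPM in the Msi2 -/- libraries, against 35.1 and 49.3 CPM in the controls. Its log2 fold change of -8.07 (SE 0.485) had an adjusted p of 0.122 by edgeR and of 6.35e-80 by DESeq2, so edgeR at its threshold missed even the deleted gene. Gene counts totalled 87564774 and 78659396 in the Msi2 -/- libraries and 79845492 and 72273679 in the controls, where 3 counts correspond to 0.0343 to 0.0415 CPM. Markers of immature leukemic cells (Kit, Hoxa9, Hoxa10, Meis1, Myb, Cd34 and Ptprc) were present in every library, with summed levels of 1211 and 1227 CPM in Msi2 -/- and 1396 and 1350 CPM in control cells. Among them Cd34 differed widely between mice of a genotype, with 79.7 and 6.87 CPM in Msi2 -/- and 20.6 and 43.8 CPM in control cells. Myb was lower without overlap, with 499 and 578 CPM in Msi2 -/- against 751 and 696 CPM in control cells. Kit was higher without overlap, with 67.9 and 55.8 CPM in Msi2 -/- against 51.2 and 52.3 CPM in control cells. The other 5 overlapped, and DESeq2 called 1 of the 7. The libraries also stood apart in other ways. Summed late neutrophil markers were 1395 and 2176 CPM in Msi2 -/- against 1040 and 684 CPM in control cells. Of these 9 markers, 4 were higher and 2 lower without overlap, as were 19% and 29.2% of all tested genes. The higher ones were Ltf, Lcn2, S100a8 and S100a9, and the lower ones Mmp9 and Cxcr2. Cxcr2 had 1.58 and 3.50 CPM in Msi2 -/- against 6.69 and 9.48 CPM in control cells. DESeq2 called 5 of the 9, against 3.1% of all genes higher and 2.71% lower. Monocyte and macrophage markers summed to 62.2 and 396 CPM in Msi2 -/- against 193 and 298 CPM in control cells. Of the 7 measured, 1 was higher and 3 were lower without overlap, and DESeq2 called 2, beside the same shares of all genes. Csf1r had 10.4 and 13.7 CPM in Msi2 -/- against 4.38 and 6.45 CPM in control cells. Irf8 had 6.01 and 5.14 CPM in Msi2 -/- against 15.5 and 35.0 CPM in control cells. Ccr2 overlapped, with 19.9 and 305 CPM in Msi2 -/- against 132 and 200 CPM in control cells. All 5 erythroid markers were under 1 CPM in every library. Xist, the transcript of the inactive X chromosome, had 0.468 and 0.610 CPM in Msi2 -/- cells, against 1477 and 660 CPM in control cells. Transcripts of 4 Y genes summed to 224 and 236 CPM in Msi2 -/- cells and were present in both controls as well, at 41.7 and 186 CPM. Sex-linked transcripts therefore moved with genotype, and the 2 cannot be told apart in these libraries. The part of these differences in any result below was not tested. In bulk RNA, fewer cells of a type and less RNA per cell cannot be told apart either.

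The members were an evenly expressed set with a few sharp exceptions. Of the 340 rows, 277 passed 1 CPM in all 4 libraries, 5 in 3, 7 in 2 and 2 in a single library. The rows closest under the threshold were Zfp931, whose second highest library had 0.992 CPM, and Zfp750 with 0.941 CPM. The closest above it were Zfp503 with 1.05 CPM and Zfp786 with 1.08 CPM. Zfp429, Zfp783, Zfp786 and Zfp820 passed only through the controls, so they had to differ between the groups, and none passed only through the Msi2 -/- libraries. All 289 members passed the filter on low counts of the test across 13215 genes. For the median member, the highest library was 1.26 times the lowest. This ratio was under 2 for 258 members, from 2 to 4 for 20, and 4 or more for 11, of which 6 reached 10. Members summed to 0.733% and 0.720% of gene counts in Msi2 -/- cells and to 0.762% and 0.802% in control cells.

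Of the 7 members that DESeq2 called, all lower in Msi2 -/- cells, 3 were nearly off in both Msi2 -/- libraries, namely Zfp783, Zfp820 and Zfp429. Another group, led by Zfp507 and Zfp951, was at least 2-fold low or high in a single library. The promoters of these 5 are shown because they mark where the genes with the widest ratios start. The sequences are RefSeq's for GRCm38.p6, from 250 bases before to 50 bases after the start, read along the gene, with each CG dinucleotide in capitals. They come from the reference genome and not from these mice. The window of Zfp783 is chr6:47942925-47943224 on the plus strand, that of Zfp820 chr17:21845710-21846009 on the minus strand and that of Zfp429 chr13:67399718-67400017 on the minus strand. Those of Zfp507 and Zfp951 are chr7:35802940-35803239 on the minus strand and chr5:104859978-104860277 on the minus strand.
Zfp783: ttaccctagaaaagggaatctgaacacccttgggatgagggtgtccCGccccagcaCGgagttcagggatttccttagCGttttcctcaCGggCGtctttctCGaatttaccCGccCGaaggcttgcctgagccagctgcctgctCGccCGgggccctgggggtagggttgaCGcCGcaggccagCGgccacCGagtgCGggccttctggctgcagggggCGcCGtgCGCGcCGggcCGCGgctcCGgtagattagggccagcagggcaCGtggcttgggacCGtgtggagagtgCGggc
Zfp820: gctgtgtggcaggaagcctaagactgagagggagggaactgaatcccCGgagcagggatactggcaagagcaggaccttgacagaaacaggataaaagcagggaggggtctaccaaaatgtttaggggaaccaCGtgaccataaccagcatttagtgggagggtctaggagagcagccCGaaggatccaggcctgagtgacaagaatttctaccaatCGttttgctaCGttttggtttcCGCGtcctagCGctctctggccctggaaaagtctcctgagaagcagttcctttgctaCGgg
Zfp429: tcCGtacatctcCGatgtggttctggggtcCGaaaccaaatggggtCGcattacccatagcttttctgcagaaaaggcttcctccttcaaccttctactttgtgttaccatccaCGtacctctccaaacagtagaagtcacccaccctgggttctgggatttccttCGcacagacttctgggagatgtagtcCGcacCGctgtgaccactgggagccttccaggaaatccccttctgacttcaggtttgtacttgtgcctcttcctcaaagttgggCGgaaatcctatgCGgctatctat
Zfp507: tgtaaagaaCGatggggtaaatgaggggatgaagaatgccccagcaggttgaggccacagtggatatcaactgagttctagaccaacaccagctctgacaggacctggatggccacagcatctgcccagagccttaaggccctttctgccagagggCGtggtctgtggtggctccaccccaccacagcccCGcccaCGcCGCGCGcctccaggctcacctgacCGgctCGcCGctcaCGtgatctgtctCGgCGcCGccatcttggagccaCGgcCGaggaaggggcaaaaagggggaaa
Zfp951: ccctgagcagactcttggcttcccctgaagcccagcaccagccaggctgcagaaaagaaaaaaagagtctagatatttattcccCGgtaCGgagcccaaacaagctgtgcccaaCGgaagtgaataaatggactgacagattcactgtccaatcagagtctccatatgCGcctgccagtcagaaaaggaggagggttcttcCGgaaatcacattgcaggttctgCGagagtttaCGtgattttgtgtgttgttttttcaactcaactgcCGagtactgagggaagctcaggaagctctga
The 5 windows differed widely in CG content. They held 26 CG in Zfp783, 9 in Zfp820, 10 in Zfp429, 16 in Zfp507 and 8 in Zfp951. Across the 240 members with a promoter in the table the median was 15 CG (range 1 to 54), against 7 over all 27025 promoters. Members with the KRAB pattern had a median of 11 CG (139 promoters) and members without it 19 (99 promoters). The letters CCAAT, searched on both strands, were in 46.7% of member promoters and 37.9% of all promoters. The letters CCGGAAG, searched the same way and unable to overlap CCAAT, were in 22.5% of member promoters and 9.12% of all promoters. Members were chosen for their level, while all promoters were taken whatever the level of the gene. Promoters of other expressed genes were not compared, so these differences cannot be assigned to the zinc finger family. Among the promoters printed, Zfp820 and Zfp951 held CCAAT and Zfp951 also held CCGGAAG, while the windows of Zfp783, Zfp429 and Zfp507 held neither.

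Zfp783 had 0.171 and 0.191 CPM in the Msi2 -/- libraries (15 counts each), against 29.5 and 7.28 CPM in the controls (2353 and 526 counts). The groups did not overlap, and control 1 was well above control 2. After TMM scaling the means were 0.183 ± 0.0165 CPM in Msi2 -/- and 18.1 ± 15.4 CPM in control cells (SD, n = 2 each). On the log2 scale it differed by -6.62 (SE 0.903), and its adjusted p was 0.271 in edgeR's quasi-likelihood test and 1.16e-17 in DESeq2. This row is annotated as a long non-coding RNA in RefSeq and as a transcribed unprocessed pseudogene in GENCODE, on chromosome 6, so no zinc finger protein is assigned to it.

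Zfp820, a KRAB gene on chromosome 17 with 12 C2H2 zinc finger patterns, had 0.126 and 0.0636 CPM in Msi2 -/- cells (11 and 5 counts). In control cells it had 4.65 and 4.93 CPM (371 and 356 counts). The controls lay close together and far above both Msi2 -/- libraries. Its scaled means were 0.0954 ± 0.0430 CPM in Msi2 -/- and 4.73 ± 0.218 CPM in control cells (SD, n = 2 each). The difference was -5.60 on the log2 scale (SE 0.454), at adjusted p 0.215 by edgeR and 5.88e-22 by DESeq2. Without Msi2 -/- replicate 2 edgeR gave -5.21 at an adjusted p of 0.0379, which rests on 1 Msi2 -/- mouse.

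Zfp429, also known as Rsl2 and studied with Rsl1 as a regulator of sex-dependent genes in mouse liver, had 0.286 and 0.407 CPM in Msi2 -/- cells. The controls had 4.10 and 3.89 CPM. Both Msi2 -/- libraries were again far below both controls. Its log2 fold change of -3.49 (SE 0.352) had adjusted p 0.259 by edgeR and 1.14e-12 by DESeq2. In 25.3% of its 50-base stretches this gene shares sequence with transcripts of other genes, mostly Rsl1, so its counts may be uncertain to that extent. These 3 genes were called lower by DESeq2 without each library in turn, with Zfp783 between -5.30 and -7.30 on the log2 scale. Since all 3 passed the member rule only through the controls, their number is no measure of how often members fell.

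Most neighbours of these genes had like levels in all libraries. Along the chromosome Zfp783 lies between Zfp212, with 23.1 and 23.8 CPM in Msi2 -/- and 24.5 and 22.9 CPM in control cells, and Zfp956, with 17.5 and 16.9 CPM in Msi2 -/- against 21.0 and 18.8 CPM in control cells. Over the 4 rows on each side of Zfp783, log2 fold changes ran from -0.76 to 0.52 and DESeq2 called none of 8. The 8 neighbours of Zfp820, Zfp229 and Zfp942 among them, ran from -0.47 to 0.20, again with none called. Of the 8 neighbours of Zfp429, 1 was called, Zfp874a, which is no member because of the letter in its symbol. It had 3.0 and 3.11 CPM in Msi2 -/- cells against 7.89 and 7.65 CPM in control cells, or -1.31 on the log2 scale (SE 0.203; adjusted p 0.271 by edgeR and 1.47e-06 by DESeq2). Zfp459, the row between them, had 1.36 and 1.06 CPM in Msi2 -/- against 1.17 and 1.20 CPM in control cells, and its groups overlapped.

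**Figure D1:**
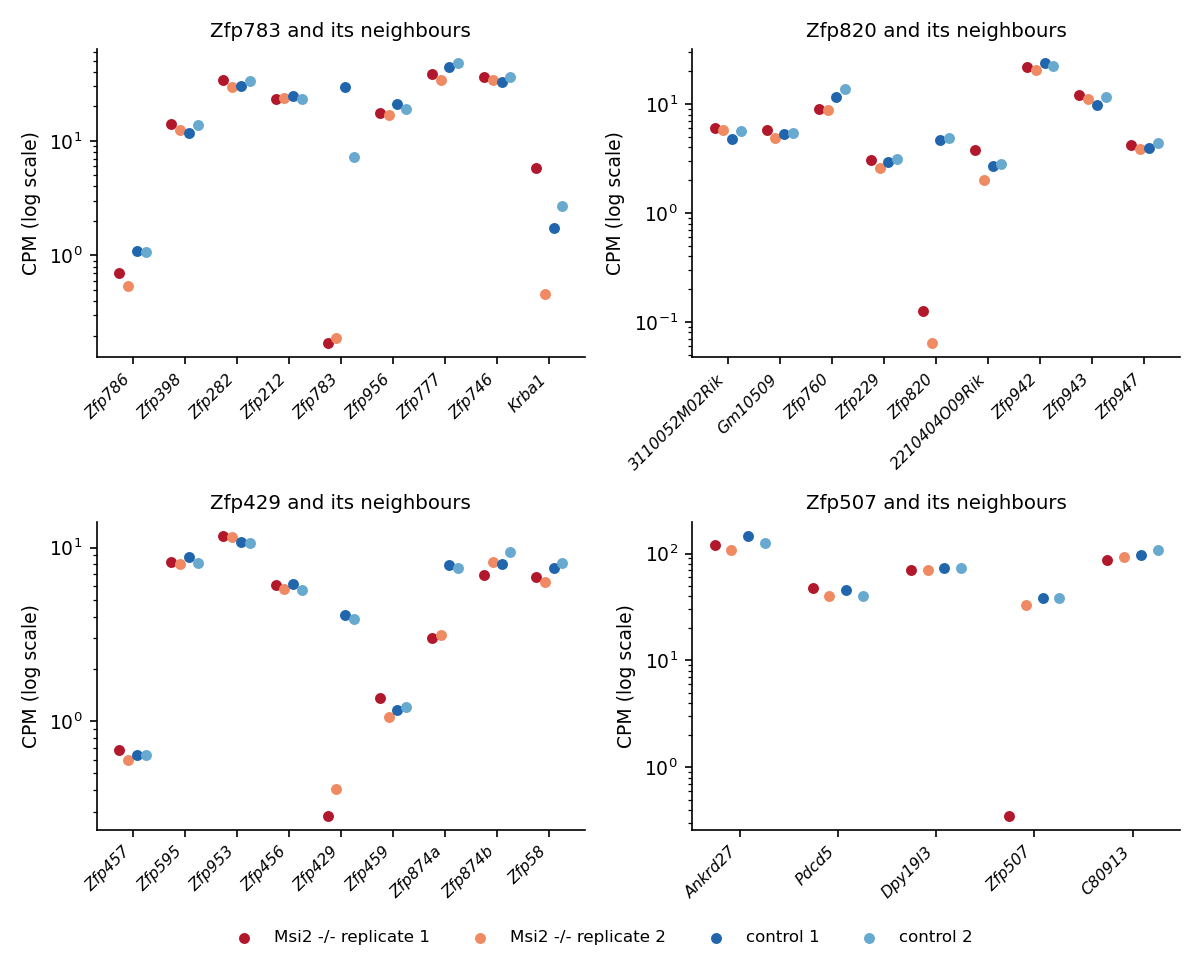
CPM of Zfp783, Zfp820, Zfp429 and Zfp507 and of up to 4 rows on each side in chromosome order (log scale), with 1 point per library and rows under 0.5 CPM in every library left out. Zfp783, Zfp820 and Zfp429 are low in both Msi2 -/- libraries and Zfp507 in replicate 1 alone, while most neighbours have like levels in all 4 libraries.

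The other 4 members called by DESeq2 fell by less, and all stayed above 1 CPM in every library. Zfp938, a KRAB gene on chromosome 10, had 2.66 and 3.22 CPM in Msi2 -/- cells against 6.60 and 7.18 CPM in control cells. It differed by -1.19 on the log2 scale (SE 0.236; adjusted p 0.293 by edgeR and 8.75e-04 by DESeq2). Zfp386, a KRAB gene on chromosome 12, had 17.5 and 17.2 CPM in Msi2 -/- against 29.0 and 24.7 CPM in control cells. Here the difference was -0.59 (SE 0.132; adjusted p 0.308 by edgeR and 0.0063 by DESeq2). The groups of both genes were apart, although the controls of Zfp386 differed more than its Msi2 -/- libraries. Zfp318, which has no KRAB pattern and is needed in mature B cells for IgD, had 14.8 and 16.7 CPM in Msi2 -/- against 23.5 and 22.5 CPM in control cells. The log2 fold change of Zfp318 was -0.51 (SE 0.134; adjusted p 0.333 by edgeR and 0.0314 by DESeq2). Beside it, the B cell marker Cd79b had 20.4 and 18.1 CPM in Msi2 -/- and 26.5 and 26.5 CPM in control cells, Cd79a was under 1 CPM and Ebf1 had no count in any library, and their part in this difference was not tested. Zfp568, a KRAB repressor of a placental Igf2 transcript in the mouse embryo, had 48.5 and 50.3 CPM in Msi2 -/- against 63.2 and 75.9 CPM in control cells. For Zfp568 the difference was -0.46 (SE 0.119; adjusted p 0.333 by edgeR and 0.0457 by DESeq2). These 4 calls did not last when libraries were left out. Zfp938 was called only without Msi2 -/- replicate 2, Zfp568 only without control 1, and Zfp386 and Zfp318 in none of the 4 fits.

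By edgeR no member reached an adjusted p under 0.05, and of all tested genes 0% were called in the higher direction and 0.00757% in the lower (1 gene, Ikzf2, a zinc finger factor of the Ikaros family that is no member). Counting unadjusted p under 0.05, edgeR had 1 member higher and 16 lower (0.346% and 5.54% of members), against 6.69% and 6.17% of all tested genes. DESeq2 called 0 members higher and 7 lower (2.42%), against 3.1% higher and 2.71% lower over the 13350 genes to which it gave an adjusted p. Since 3 of the 7 passed the member rule only through the controls, nothing is read from this share or its direction. The 1 member higher by unadjusted p was Zfp597, with 34.6 and 31.1 CPM in Msi2 -/- and 26.7 and 24.5 CPM in control cells (log2 fold change 0.39, SE 0.112, adjusted p 0.336 by edgeR and 0.0520 by DESeq2).

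Small differences ran mostly downward. Below 0 on the log2 scale lay 178 of the 289 members (61.6%) and above it 111, against 50.3% below 0 over all tested genes. The median was -0.062 for members and -0.0020 for all genes, and 256 members lay within 0.5 of 0 on the log2 scale. The 2 Msi2 -/- libraries of 31 members were both above both controls (10.7%), against 19% of all tested genes, and those of 116 members were both below both controls (40.1%), against 29.2%. Per library the median difference from the control mean was -0.0622 and -0.0685 for Msi2 -/- and -0.0303 and 0.0303 for control 1 and control 2, with an SD of 0.0304 within groups. Leaving out control 2 brought the median to -0.0227 and the share below 0 to 55.7%. The medians of the controls were about as far from each other as the median of all members lay from 0.

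**Figure D2:**
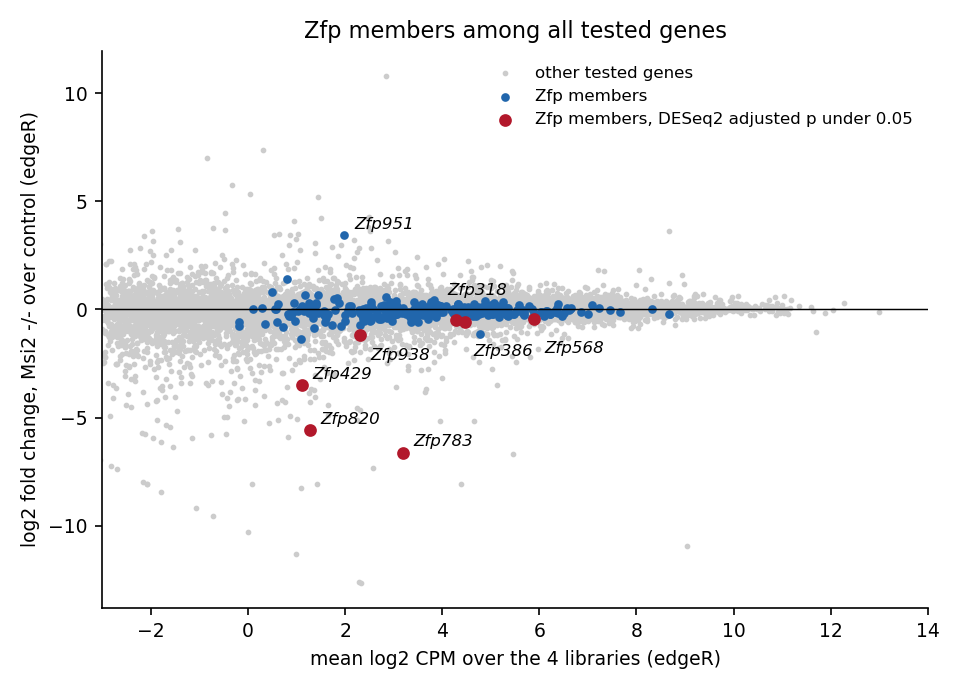
Log2 fold change (Msi2 -/- over control, edgeR) against mean log2 CPM for members, other tested genes (grey, within the range of the x axis) and the members with a DESeq2 adjusted p under 0.05 (red). Most members lie close to 0, the 7 called members lie below it, and Zfp951 stands above it on the strength of a single library.

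A KRAB A box pattern was found in 157 translated members, and 129 had none. The remaining 3 (Zfp783, Zfp862 and Zfp939) had no coding sequence to translate. The pattern is a score of at least 11 of 15 conserved places. A member under that score may still carry a KRAB domain, so the second set is not a set free of KRAB. C2H2 zinc finger patterns per protein had a median of 12 in the first set and 7 in the second, and 7 members had no C2H2 pattern. Zinc fingers of other kinds were not searched. Levels per kilobase of exon were lower for members with the pattern, with a median of 2.13 CPM per kilobase, against 5.32 for members without it. On the log2 fold change scale 94 of the 157 members with the pattern lay below 0 (59.9%), and the median of that set was -0.0527. Of the 129 members without it 82 lay below 0 (63.6%), and the median of that set was -0.0723. Over all tested genes 50.3% lay below 0. Groups without overlap were lower in Msi2 -/- for 65 members with the pattern (41.4%) and 49 without it (38.0%), against 29.2% of all tested genes. DESeq2 called 5 members with the pattern lower (3.18%) and 1 without it, Zfp318 (0.775%), against 2.71% of all genes. Zfp820, Zfp429 and Zfp786, all with the pattern, passed the member rule only through the controls and had to be lower. Nothing is therefore read from the shares of the sets. The difference between the sets was not tested. When only the 250 members with under 10% shared sequence were counted, 160 lay below 0 (64%) with a median of -0.0736. DESeq2 called 6 of them lower (2.4%, against 2.71% of all genes), Zfp783 and Zfp820 among them. Both passed the member rule only through the controls, so nothing is read from this share either.

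**Figure D3:**
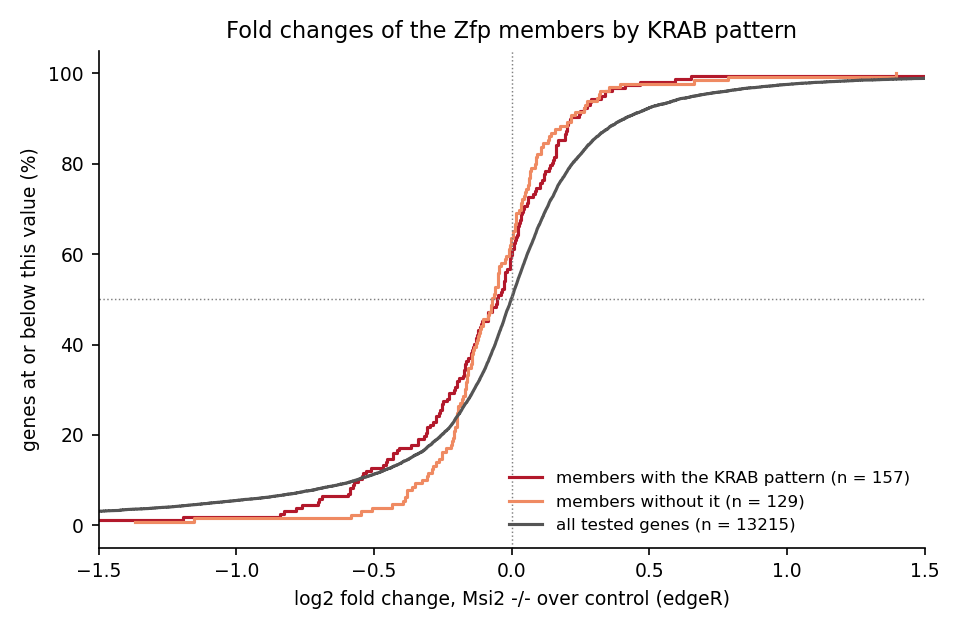
Cumulative share of genes (%) by log2 fold change (Msi2 -/- over control, edgeR) for members with the KRAB pattern, members without it and all tested genes over the central range. The curves of both member sets cross 50% at -0.0527 and -0.0723, left of the curve of all genes at -0.0020.

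Some members were low in a single library while the other 3 agreed. The clearest was Zfp507, without the KRAB pattern, with 0.354 CPM in Msi2 -/- replicate 1 and 33.0 CPM in replicate 2, against 38.3 CPM in each control. Replicate 1 had 31 counts where replicate 2 had 2592 and the controls 3057 and 2768. Its neighbours kept their level in that library: Dpy19l3 had 70.2 and 69.8 CPM in Msi2 -/- and 73.9 and 73.9 CPM in control cells, and Pdcd5 47.2 and 39.7 CPM in Msi2 -/- against 45.6 and 40.2 CPM in control cells. As the Msi2 -/- mice disagreed, the fit gave Zfp507 a log2 fold change of -1.15 with an SE of 1.71 (adjusted p 0.799 by edgeR). Without Msi2 -/- replicate 2 it became -6.73 with an adjusted p of 0.0130 by edgeR, a value that rests on 1 Msi2 -/- mouse.

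Zfp951, a KRAB gene on chromosome 5, showed the opposite spread, with 13.3 CPM in Msi2 -/- replicate 1, 1.02 CPM in replicate 2, and 0.150 and 1.19 CPM in the controls. It was high in the first Msi2 -/- library and nearly off in control 1, and the groups overlapped. The log2 fold change of 3.44 had an SE of 1.61 (adjusted p 0.443 by edgeR and 0.318 by DESeq2), and was 0.66 without Msi2 -/- replicate 1. Its 7 tested neighbours ran from -2.53 to 1.15, with 0 called by DESeq2, and some were uneven too. Spp1 had 16.1 and 76.6 CPM in Msi2 -/- against 92.5 and 118 CPM in control cells. The nearer D930016D06Rik had 13.2 and 13.9 CPM in Msi2 -/- against 19.6 and 17.8 CPM in control cells. Zfp697 had 0.0914 and 1.26 CPM in Msi2 -/- cells (8 and 99 counts) against 1.13 and 0.955 CPM in control cells (90 and 69 counts). Zfp941, a KRAB gene, had 0.400 and 1.49 CPM in Msi2 -/- against 1.57 and 1.56 CPM in control cells. In both, Msi2 -/- replicate 1 was the low library.

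By the limit of 0.2 CPM used for near silence, 4 members were under it in at least 1 library: Zfp783 and Zfp820 in both Msi2 -/- libraries, Zfp697 in Msi2 -/- replicate 1, and Zfp951 in control 1. Zfp429, at 0.286 CPM, was the closest outside. None of these was without counts, and the lowest, Zfp820 with 5 counts in Msi2 -/- replicate 2, lay above the 3 counts taken as the floor. Members near silent numbered 3 and 2 in the Msi2 -/- libraries and 1 and 0 in the controls. Zfp783 and Zfp820, which make up most of the Msi2 -/- numbers, passed the member rule only through the controls. Nothing is therefore read from these numbers, and the share over all genes was not counted.

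A library at least 2-fold below the next lowest was found for 7 members (2.42%), against 8.03% of all tested genes. Msi2 -/- replicate 1 was that library for Zfp507, Zfp697 and Zfp941, replicate 2 for Zfp316 and Zfp345, control 1 for Zfp111 and Zfp951, and control 2 for none. A library at least 2-fold above the next highest was also found for 7 members (2.42%), against 4.28% of all tested genes. These were Zfp345, Zfp467 and Zfp951 in Msi2 -/- replicate 1, Zfp503 in replicate 2, Zfp783 and Zfp882 in control 1, and Zfp580 in control 2. Both shares were below those of all tested genes, which include many genes of lower level, and the difference was not tested. Between replicates of a group, 14 members (4.84%) were 2-fold or more apart between the Msi2 -/- mice, against 12.1% of tested genes, and 7 (2.42%) between the controls, against 6.80%.

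Uneven members of higher level included Zfp111, with 9.58 and 12.9 CPM in Msi2 -/- and 2.83 and 20.2 CPM in control cells. Its controls were 7.14-fold apart, and the groups overlapped. Zfp345 had 6.74 and 1.02 CPM in Msi2 -/- against 2.59 and 3.11 CPM in control cells. It shares 30.5% of its stretches with other transcripts, mostly Gm14139. Zfp937 had 3.20 and 0.356 CPM in Msi2 -/- cells and 0.539 and 3.39 CPM in control cells, so 1 library of each genotype was high. Its row neighbour Gm14139 had 5.05 and 0.356 CPM in Msi2 -/- against 0.789 and 0.498 CPM in control cells, high in Msi2 -/- replicate 1 but not in control 2. Zfp937 shares 31.5% of its stretches with other transcripts, mostly Zfp442.

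**Figure D4:**
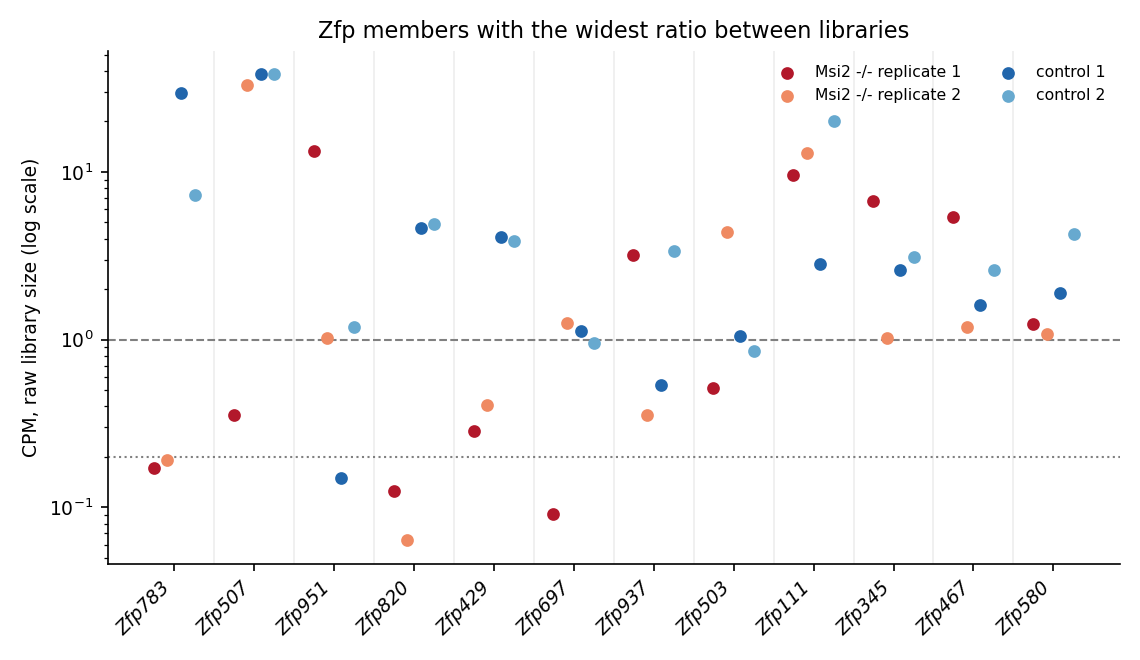
CPM (log scale) of the 12 members with the highest ratio between the highest and the lowest library, 1 point per library, Msi2 -/- left of control, with lines at 1 CPM (the member rule) and 0.2 CPM (near silence). Zfp783, Zfp820 and Zfp429 are low in both Msi2 -/- libraries, whereas Zfp507, Zfp697 and Zfp951 depart in a single library of a genotype.

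Per kilobase of exon the order of all members began with Zfp207, a spindle assembly and splicing protein, with a mean of 47.9 CPM per kilobase in Msi2 -/- and 48.6 in control cells. Zfp706 followed with 38.7 CPM per kilobase in Msi2 -/- and 42.9 in control cells. Next came Zfp106, an RNA-binding protein, with 35.9 CPM per kilobase in Msi2 -/- and 42.2 in control cells, and Zfp598, a ubiquitin ligase that marks collided ribosomes, with 28.4 in Msi2 -/- and 31.3 in control cells. The other members with a role in RNA or translation ranked lower, Zfp36 at 30, Zfp622 at 51 and Zfp326 at 123 of 289. Whether neighbours in this order differ was not tested. Among all members, 8 averaged 100 CPM or more and 60 averaged under 5 CPM.

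Of the 6 RNA and translation genes that were members, 5 lay below 0 and none passed edgeR or DESeq2. Zfp106 had 383 and 366 CPM in Msi2 -/- against 422 and 457 CPM in control cells (log2 fold change -0.20, SE 0.0755, adjusted p 0.396 by edgeR and 0.234 by DESeq2). Zfp36, tristetraprolin, which binds AU-rich elements and speeds the decay of cytokine mRNAs, had 34.8 and 38.3 CPM in Msi2 -/- against 48.4 and 41.0 CPM in control cells. Zfp622, a factor of large ribosomal subunit maturation, had 59.0 and 51.3 CPM in Msi2 -/- against 62.3 and 63.7 CPM in control cells. Zfp326, which couples transcript elongation to splicing, had 26.4 and 26.2 CPM in Msi2 -/- and 29.2 and 30.3 CPM in control cells. In Zfp106, Zfp36, Zfp622 and Zfp326 both Msi2 -/- libraries were below both controls. These are 4 of 6 (66.7%), against 40.1% of all members and 29.2% of all tested genes. Zfp598 overlapped, at 120 and 101 CPM in Msi2 -/- against 118 and 126 CPM in control cells. Zfp207 was the member above 0, with 317 and 321 CPM in Msi2 -/- against 303 and 344 CPM in control cells and a log2 fold change of 0.0145 (SE 0.0901), which became -0.0083 under upper-quartile scaling.

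The 11 promoter and chromatin factors lay close to 0, with 6 above 0, 5 below, a median log2 fold change of 0.0124 and no call by either tool. Zfp64, whose human counterpart drives the MLL promoter in MLL leukemia, had 42.5 and 38.7 CPM in Msi2 -/- and 38.5 and 40.8 CPM in control cells, a log2 fold change of 0.0665 (SE 0.0967). Zfp143, a promoter-binding factor, had 56.0 and 59.6 CPM in Msi2 -/- against 57.1 and 49.1 CPM in control cells. Zfp384, known from fusion genes of human acute leukemia, had 87.0 and 80.4 CPM in Msi2 -/- against 81.8 and 81.5 CPM in control cells, and shares 13.1% of its stretches with other transcripts, mostly Gm11405. All of these groups overlapped. Zfp217, a partner of corepressor complexes, had 143 and 159 CPM in Msi2 -/- against 142 and 154 CPM in control cells, and Zfp410, the activator of Chd4, 46.6 and 43.8 CPM in Msi2 -/- against 45.9 and 49.1 CPM in control cells. Zfp148, Zfp281, Zfp335 and Zfp592 overlapped as well. Zfp687 and Zfp609 were lower without overlap (18.2% of the 11, against 29.2% of all tested genes). Zfp687 had 68.0 and 86.8 CPM in Msi2 -/- against 91.0 and 89.9 CPM in control cells, and Zfp609 had 87.5 and 83.2 CPM in Msi2 -/- against 93.4 and 102 CPM in control cells (adjusted p 0.616 and 0.450 by edgeR).

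Among the 7 KRAB repressors of imprints, retroelements or proviruses, 5 lay below 0 and DESeq2 called Zfp568, described earlier. Zfp445, which guards imprinted sites together with Zfp57, had 170 and 176 CPM in Msi2 -/- and 178 and 182 CPM in control cells. Zfp57 was far lower, at 3.96 and 8.67 CPM in Msi2 -/- against 5.59 and 4.79 CPM in control cells, and its groups overlapped. Zfp809, a silencer of proviruses that carry a proline primer binding site, had 14.1 and 15 CPM in Msi2 -/- against 12.7 and 12.2 CPM in control cells (log2 fold change 0.26, SE 0.141, adjusted p 0.488 by edgeR and 0.422 by DESeq2). Zfp961, which acts on proviruses with a lysine primer binding site, had 29.2 and 25.9 CPM in Msi2 -/- against 34.1 and 34.3 CPM in control cells (-0.28, SE 0.106, adjusted p 0.397 by edgeR and 0.234 by DESeq2). The 2 provirus silencers thus lay on opposite sides of 0, and neither passed. Zfp932 and Zfp708, which bind retroelements, had 12.3 and 12.2 CPM in Msi2 -/- against 14.7 and 15.3 CPM in control cells, and 1.70 and 1.45 CPM in Msi2 -/- against 2.05 and 1.88 CPM in control cells. Zfp932 shares 45.2% of its stretches, mostly with Gm15446, and Zfp708 shares 100%, mostly with Gm28557, so the counts of both may be uncertain. Whether the shared stretches lie at the same place in the genome was not checked.

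The blood and lymphoid list held 4 members, of which Zfp318, described above, was called by DESeq2 and the other 3 were not. Zfp90 had 6.35 and 7.32 CPM in Msi2 -/- and 6.75 and 7.19 CPM in control cells. Zfp105 had 5.14 and 2.76 CPM in Msi2 -/- against 1.5 and 5.16 CPM in control cells. Zfp467, a regulator of the choice between fat and bone cells in marrow stroma, had 5.39 and 1.18 CPM in Msi2 -/- against 1.62 and 2.62 CPM in control cells. In Zfp105 and Zfp467 the spread between mice of 1 genotype exceeded the difference between genotypes. Zfp521 and Zfp423, a pair of related early progenitor factors, had no count in any library.

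**Figure D5:**
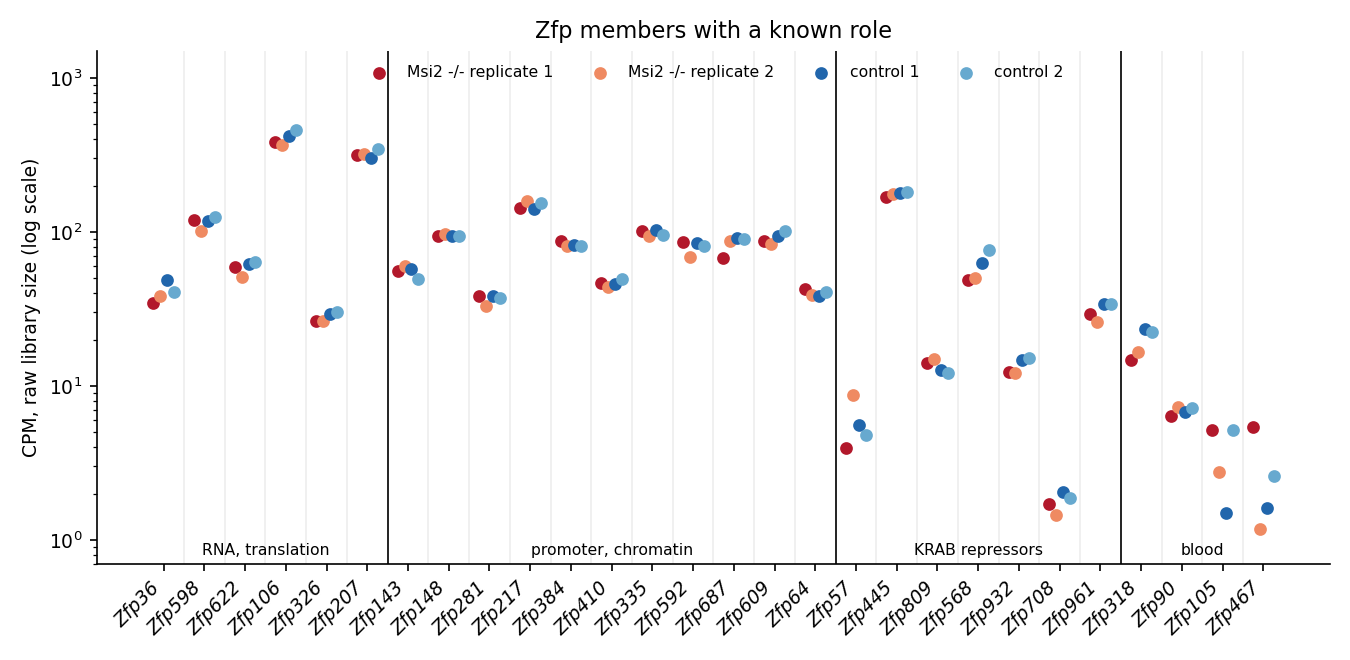
CPM (log scale) of the 28 members with a listed role, grouped by role, 1 point per library with Msi2 -/- left of control. Most span less than 2-fold over the 4 libraries, and Zfp57, Zfp105 and Zfp467 spread more widely within a genotype.

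The partners of KRAB proteins were measured as a list. Of 27 corepressor and histone or DNA methylation genes listed, 26 were in the files, with 11 above 0 and 15 below and a median log2 fold change of -0.0242. Without overlap 11 were lower in Msi2 -/- (42.3%, against 29.2% of all tested genes), Setdb1, Cbx1 and Cbx5 among them, and 2 were higher. None passed edgeR, and DESeq2 called 1 higher and 0 lower. The gene called was Ehmt2, a histone H3 methyltransferase, with 308 and 270 CPM in Msi2 -/- against 229 and 234 CPM in control cells (log2 fold change 0.36, SE 0.0840, adjusted p 0.315 by edgeR and 0.0124 by DESeq2). Trim28 had 502 and 424 CPM in Msi2 -/- and 485 and 510 CPM in control cells, and Setdb1 104 and 98.1 CPM in Msi2 -/- against 113 and 108 CPM in control cells. Transcripts of the 2 proteins that bridge KRAB factors to histone methylation thus differed by less than 0.1 on the log2 scale, at -0.0694 (SE 0.0996) for Trim28 and -0.0943 (SE 0.0655) for Setdb1. Protein was not measured.

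Members were clustered along the chromosomes, most of all on chromosome 7 with 77, chromosome 17 with 37 and chromosome 13 with 28. In 12 runs of at least 5 members, each no more than 5 rows from the next, lay 108 members. The longest, from Zfp160 to Zfp213 on chromosome 17, held 19 members and includes Zfp820, yet 8 of them lay below 0 and the median was 0.0032. The run from Zfp712 to Zfp273 on chromosome 13, with Zfp429, had 11 of 16 below 0 and a median of -0.16. On chromosome 17 the run from Zfp871 to Zfp563 had 7 of 7 below 0, from -0.70 to -0.0179, of which 4 had lower groups without overlap, as 40.1% of all members and 29.2% of all tested genes did, and none was called by DESeq2. On chromosome 7 the run from Zfp553 to Zfp689 had 1 of 7 below 0 and a median of 0.11. These last 2 runs were picked among the 12 for their direction. The 3 members on the X chromosome, Zfp182, Zfp275 and Zfp449, were not called by either tool. Zfp182 had 14.8 and 17.0 CPM in Msi2 -/- and 11.5 and 13.0 CPM in control cells, Zfp275 28.1 and 23.9 CPM in Msi2 -/- against 29.2 and 29.2 CPM in control cells, and Zfp449 1.99 and 2.25 CPM in Msi2 -/- against 1.94 and 2.66 CPM in control cells.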

How the data were processed

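RNA was sequenced from 4 libraries, 2 Msi2 -/- and 2 control. The authors deposited raw counts, whole reads per gene symbol with no normalization. Per the submitters' processing notes, Trimmomatic, STAR, HTSeq, DESeq and the build mm9 were used. Annotation and strand setting are not given in the sources consulted, and reads of overlapping or antisense genes cannot be told apart. The 5 closing rows that name no gene held 19.1% to 20.1% of counts and were left out. The leading number of the library names differs between genotypes and is the same within each; should it mark a batch, the 2 cannot be told apart.

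In R 4.3.3, edgeR 4.0.16 (filterByExpr with minimum count 10 and minimum total count 15, TMM, quasi-likelihood test, two-sided, group only, Benjamini-Hochberg adjustment over all tested genes) was the main test and DESeq2 1.42.0 (Wald test, no shrinkage) an alternative. Fold changes are log2, Msi2 -/- over control, and the SE comes from the F statistic. CPM per library use the sum of gene rows, and means with SD use TMM-scaled sizes. P-values measure the spread between these mice. Counts of the 2 replicates differed beyond sampling noise in both genotypes (chi-square per gene 144 and 59.2), so each library counts as 1 sample.

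The members and lists were chosen with earlier results of these data known. Named genes are members called by either tool, members under 0.2 CPM in a library, a list of members with known roles, genes beside each threshold, and the strongest of the KRAB partners; the uneven members, Zfp597, the neighbours and the X members were added after their values were seen. Of the gene rows, 98.7% and all 289 members matched the RefSeq table of GRCm38.p6, used for names, order and promoters, 12 members under an older symbol. Exon lengths, coding sequences and shared 50-base stretches came from GENCODE transcripts of GRCm38. Stretches counted as shared when a transcript under another gene name held them, even at the same place in the genome. A KRAB pattern needed 11 of 15 conserved places. Protein sequences are not shown, and 1 B cell marker is not reported here.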

Additional observations from a re-analysis of the deposited data

How the results depend on the processing

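Under RLE scaling, a filter at 1 CPM in 2 libraries and upper-quartile scaling, edgeR called 1 of all tested genes and 0 members, as in the reported fit; without a filter it called 6 genes and 0 members. DESeq2 called 776 genes and 7 members, and edgeR's likelihood ratio test 312 genes and 3 members (Zfp429, Zfp783 and Zfp820). The replicate numbers share no stated source (correlation of their deviations 0.0393), and with them as a replicate block edgeR called 0 genes and 0 members. Leaving out each library in turn, edgeR called 0 to 106 genes and 0 to 2 members (Zfp507 and Zfp820, without Msi2 -/- replicate 2), where 1 genotype then holds a single mouse assumed to vary like the others. The median of the members ran from -0.0892 to -0.0227. Leaving out each library in DESeq2, which was added after seeing the data, gave 4 to 7 called members, with 4 called without control 1; Zfp429, Zfp783 and Zfp820 were called each time. Without control 2 DESeq2 also called Zfp111, Zfp608 and Zfp951, without Msi2 -/- replicate 1 Zfp316 and Zfp503, and without Msi2 -/- replicate 2 Zfp507, Zfp516 and Zfp697. Near-silent members numbered 2 under 0.1 CPM and 8 under 0.5 CPM. The causes of these changes were not tested.

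Of 39 named members' fold changes over 11 alternatives, 394 kept direction and side of the threshold, 12 passed it and 23 changed sign. Under upper-quartile scaling Zfp207, Zfp335 and Zfp90 became -0.0083, -0.0096 and -0.0161; there 67.1% of members and 54.2% of all genes lay below 0. With a library left out, values ran from -0.36 to 1.43 for Zfp105, -0.0751 to 0.115 for Zfp207, -0.0287 to 0.162 for Zfp217, -0.141 to 0.0535 for Zfp281, -0.0315 to 0.0621 for Zfp335, -0.0882 to 0.0201 for Zfp410, -0.0652 to 0.0272 for Zfp445, -0.78 to 1.37 for Zfp467, -0.87 to 2.25 for Zfp503, -0.37 to 0.80 for Zfp57, -0.206 to 0.0757 for Zfp592, -3.47 to 0.33 for Zfp697, -0.11 to 0.13 for Zfp90 and -2.40 to 1.75 for Zfp937. At 0.5 and 2 CPM in 2 libraries the rule would take 295 and 270 members. With 2 mice per genotype the median SE of a member's log2 fold change was 0.165; an adjusted edgeR p that misses 0.05 does not show that a member was unchanged.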
